A study of Mus musculus with 9 samples.

Results

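The transcription factors that govern whether a T cell stays in a tissue or keeps a resting, memory-like state were followed through iNKT1 cells of thymus, liver and spleen. The 8 genes are a list of symbols grouped by known role, with no measured value in the rule: Zfp683 (Hobit) and Prdm1 (Blimp-1) as residency factors, and Tcf7 (TCF1), Lef1, Bach2, Satb1, Bcl6 and Foxo1 as memory or quiescence factors. All 8 were found by symbol among the 14004 genes of the deposited table, and all 8 passed the filter on low values. Invariant natural killer T (iNKT) cells use a semi-invariant receptor that recognises lipids on CD1d. The iNKT1 subset is marked by T-bet, the product of Tbx21. RNA-seq libraries were made from untreated iNKT1 cells of thymus (n = 3), liver (n = 3) and spleen (n = 3) of C57BL/6 mice with the genotype Tbx21CreTg;Rosa26-LSL-YFP+/+. Every group carried the same Tbx21-driven Cre transgene and the same YFP reporter that Cre switches on, so the cells come from a reporter strain in all 3 tissues. The age and sex of the mice, the sorting gate and whether a library holds the cells of 1 mouse or several are not given in the sources used here. The design text calls the replicates independent, and the p-values measure the spread between these libraries, which may be partly technical.

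Hobit and Blimp-1 are related zinc-finger repressors that together hold lymphocytes in tissues, in part by repressing genes for tissue exit such as Klf2, S1pr1 and Ccr7, and Hobit is a known regulator of liver iNKT and tissue-resident memory T cells. TCF1 and LEF1 are related HMG-box factors that bind the same DNA word and sustain naive, memory and progenitor states. BACH2 and BCL6 are repressors that hold back effector differentiation, and each is part of a known mutual repression with Blimp-1. FOXO1 drives genes of quiescence and homing such as Il7r and Klf2, and SATB1 organises chromatin in developing thymocytes.

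Values are normalised read counts, a signal per gene and library that is not corrected for gene length. Read totals recovered from the values ran from 3877694 in liver replicate 3 to 39568081 in spleen replicate 3, with the other 7 libraries from 18506598 upward, and mitochondrial ribosomal RNA took 24.2% to 34.2% of each library. The fewest reads behind a value of these 8 genes were 29 for Bcl6 in liver replicate 3 and 43 for Bcl6 in liver replicate 1, and Bach2 rested on 146 reads in liver replicate 3. Zfp683 and Satb1 rested on at least 2110 and 3130 reads in every library.

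All 10 iNKT1 markers listed (Tbx21, Il2rb, Klrb1c, Ifng, Cxcr3, Cd3e, Trac, Zbtb16, Cd44 and Slamf1) had reads in each tissue. Their summed level was 125441 to 162751 in thymus, 164542 to 177573 in liver and 116757 to 138274 in spleen. Some rested on few reads in single libraries, with 8 for Slamf1 in thymus replicate 1 and 21 for Ifng in thymus replicate 2. The 8 markers of the iNKT2 and iNKT17 subsets in the table summed to 4072 to 7616 in thymus, 4606 to 6096 in liver and 6182 to 8034 in spleen. Several libraries also held markers of other cells. Jchain, a plasma cell gene, was at 11333 in liver replicate 1 and 4634 in spleen replicate 1, and at no more than 25.7 in the other 7 libraries. The 5 plasma cell markers in the table summed to 1014 to 2640 in thymus, 2919 to 19736 in liver and 2873 to 12042 in spleen, with Mzb1 and Derl3 at 0 reads in every thymus library. The 9 B cell markers summed to 3157 to 5657 in thymus, where Cd79a, Cd79b and Ms4a1 had 0 reads, to 5936 to 8699 in liver and to 5382 to 16952 in spleen, highest in spleen replicate 1. Of 7 myeloid markers, the summed level was 10.6 to 315 in thymus, 36.8 to 1298 in liver and 56.9 to 4458 in spleen, again highest in spleen replicate 1. The 10 immature thymocyte markers summed to 7701 to 9025 in thymus, 15249 to 16800 in liver and 17763 to 19452 in spleen. Themis and Ccr9, which mature T cells also express, made the sum higher outside the thymus, with means of 545, 4558 and 4657 for Themis and 338, 3665 and 6401 for Ccr9 in thymus, liver and spleen. Within that list Rag1, the recombinase gene, was at 486 in thymus replicate 3 and had at most 1 read in each of the other 8 libraries, and Cd8a was at 257 in thymus replicate 3 and 1116 in liver replicate 1. The 8 hepatocyte markers summed to 110.0 to 868 in thymus, 1421 to 1872 in liver and 0.525 to 40.5 in spleen, and Alb, the albumin gene, was at 1172 to 1588 in liver, at 268 or less in thymus and at 10.4 or less in spleen. The 7 natural killer cell markers summed to 7317 to 11289 in thymus, 2508 to 7784 in liver and 1625 to 1945 in spleen. Klra8, Klre1 and Gzma had their highest means in thymus and their lowest in spleen. Klre1 averaged 3293, 1454 and 573 and Gzma 4770, 1435 and 350.3 in thymus, liver and spleen. Klrg1 and Itga2 had their lowest means in thymus. Klrg1 averaged 21.3, 287 and 279 and Itga2 370, 990 and 534 in the same order. Ncr1 was at 616, 13.7 and 131 in liver replicates 1, 2 and 3, with 0 reads in thymus. Xist, which female cells express, was at 84543 to 107736 in the libraries numbered 2, at 16531 in thymus replicate 3 and at 125.2 or less in the other 5. These are bulk libraries, in which fewer cells of a type and less RNA per cell cannot be told apart.

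**Figure D1:**
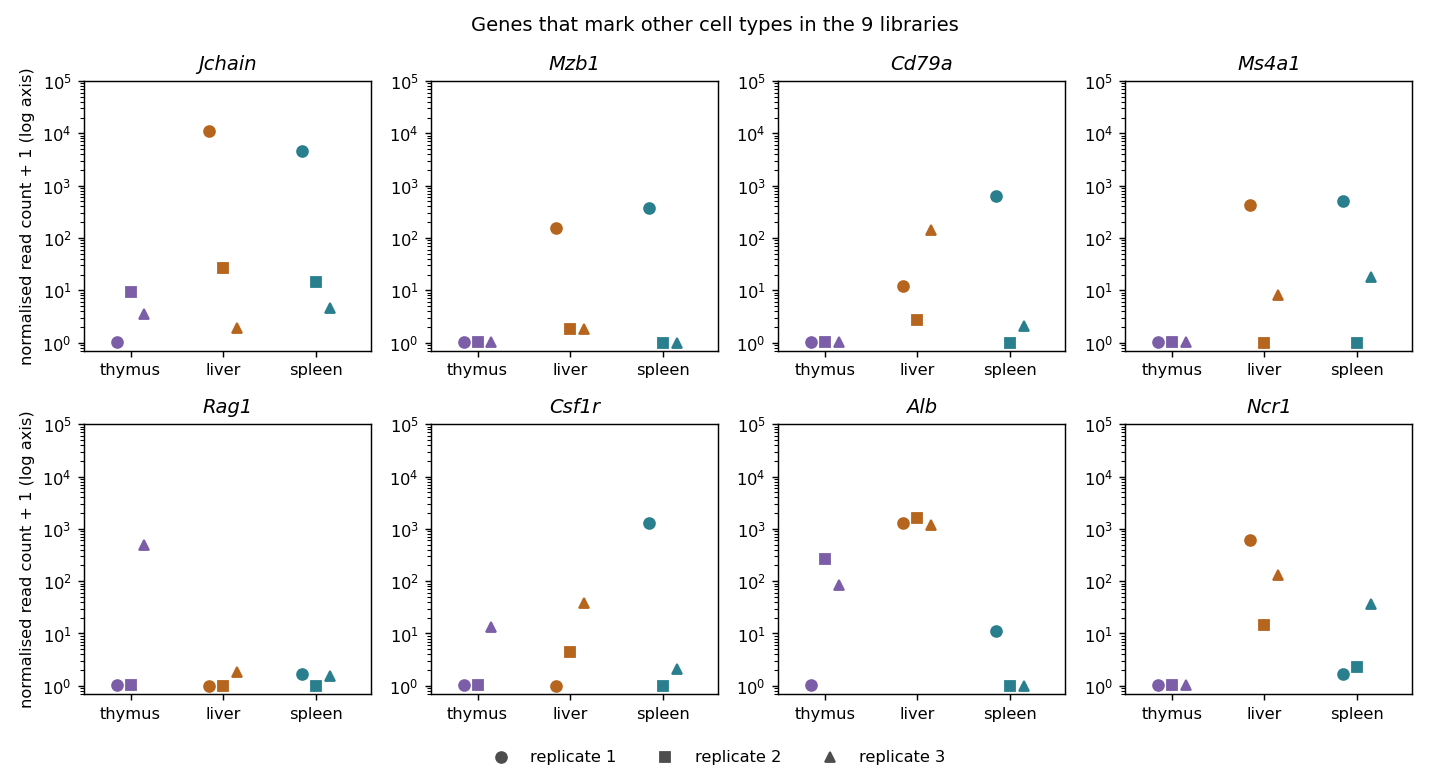
Normalised read count + 1 on a log axis for 8 genes that mark other cell types, with 1 point per library and shapes for replicate numbers. Jchain stands at 11333 in liver replicate 1 and 4634 in spleen replicate 1, Rag1 at 486 in thymus replicate 3, and Alb is high in all 3 liver libraries.

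In the means, Zfp683 and Prdm1 were highest in liver, Lef1 and Bach2 in spleen and Satb1 in thymus, and Foxo1 was lower in thymus than in liver and spleen. The values of Tcf7 and Bcl6 overlapped between all 3 tissues, as did those of Prdm1. For Zfp683 thymus overlapped both other tissues, and for Lef1 and Foxo1 liver did. No tissue difference of these factors passed the test across all genes. With limma-trend on log2(value + 1), adjusted over 13309 genes, 0 of 8 factors passed an adjusted p of 0.05 in liver vs thymus, where 0.323% of all genes passed. In spleen vs thymus 0 of 8 passed against 0.398% of all genes, in liver vs spleen 0 of 8 against 0.015%, and in the F-test of any tissue difference 0 of 8 against 0.346%. At an unadjusted limma-trend p under 0.05 there were 2, 4 and 1 factors in these 3 comparisons and 4 in the F-test, where 11.6%, 11.7%, 3.03% and 9.95% of all genes were. On recovered reads DESeq2 also called 0 of 8 in each, against 3.41%, 3.86%, 0.179% and 2.66% of 13435 genes, and edgeR 0 of 8 against 0.186%, 0.29%, 0.0149% and 0.246%. Both thymus comparisons share the same 3 thymus libraries.

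For some factors the 3 values in a tissue lay entirely above or below the 3 values in another. In liver vs thymus that held for 1 factor (Satb1, thymus higher), and for 15.3% of all genes, 9.61% with liver higher and 5.73% with thymus higher. In spleen vs thymus it held for 4 factors (Lef1, Bach2 and Foxo1 higher in spleen, Satb1 higher in thymus), and for 15.3% of all genes, 9.29% with spleen higher and 6.03% with thymus higher. In liver vs spleen it held for 2 factors (Zfp683 higher in liver, Bach2 higher in spleen), and for 12.7% of all genes, 5.97% with liver higher and 6.77% with spleen higher. No test was made over the list, so these counts are a description. The median log2 fold change of the 8 factors was 0.48 in liver vs thymus, 0.45 in spleen vs thymus and -0.0044 in liver vs spleen, beside 0.29, 0.33 and -0.02 for all genes tested. That shift of all genes in the 2 thymus comparisons varied with how the values were scaled and fitted. It was 0.43 and 0.48 with equal library totals, 0.21 and 0.23 with a pseudocount of 8, -0.04 and -0.02 with DESeq2 and -0.04 and 0.01 with edgeR. At least 1 difference of each factor is therefore also given below relative to the median of all genes.

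**Figure D2:**
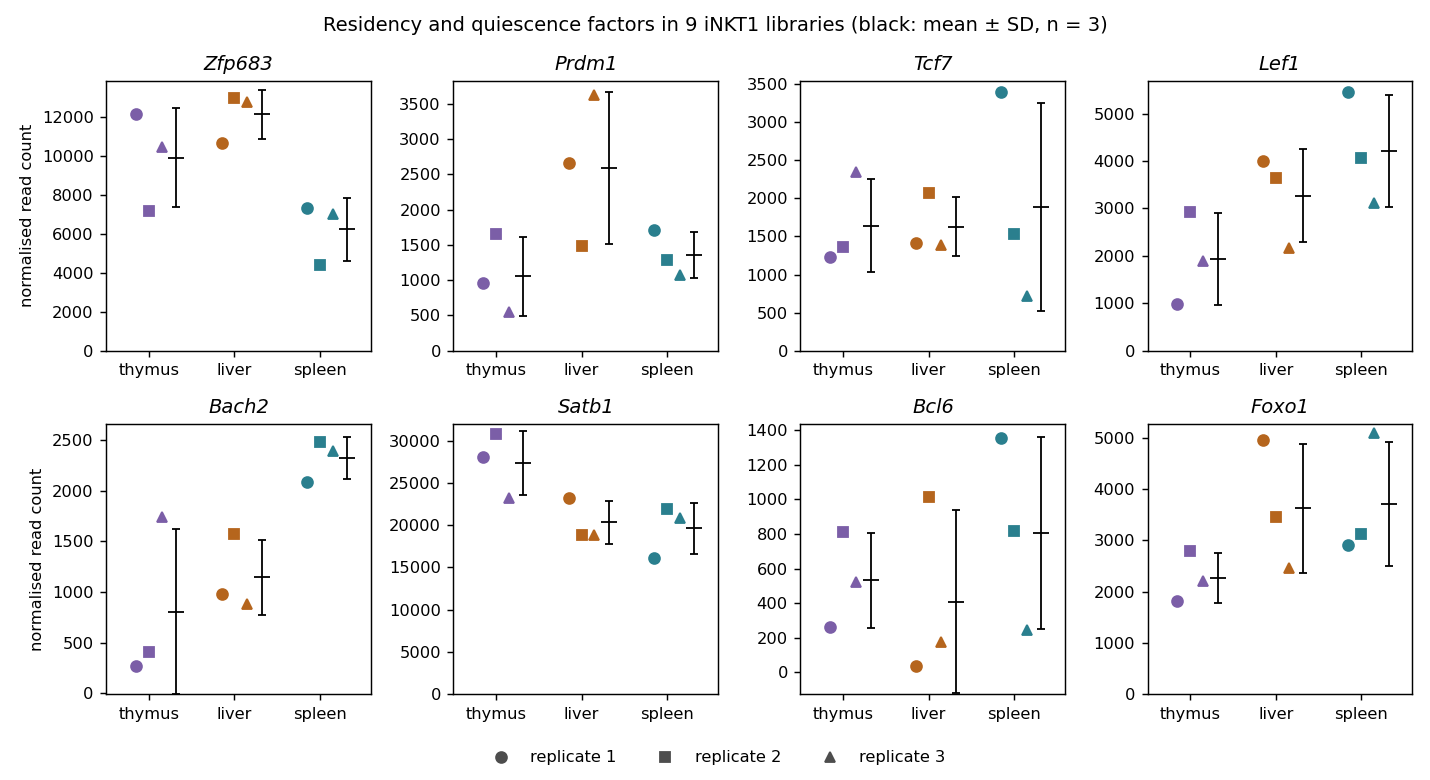
Normalised read count of each of the 8 factors (linear axes) in thymus, liver and spleen, with 1 point per library, shapes for replicate numbers, and black bars for mean ± SD (n = 3). The 3 spleen points of Bach2 lie between 2089 and 2482, above every thymus and liver point, and the 3 liver points of Zfp683 lie above the 3 spleen points.

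**Figure D3:**
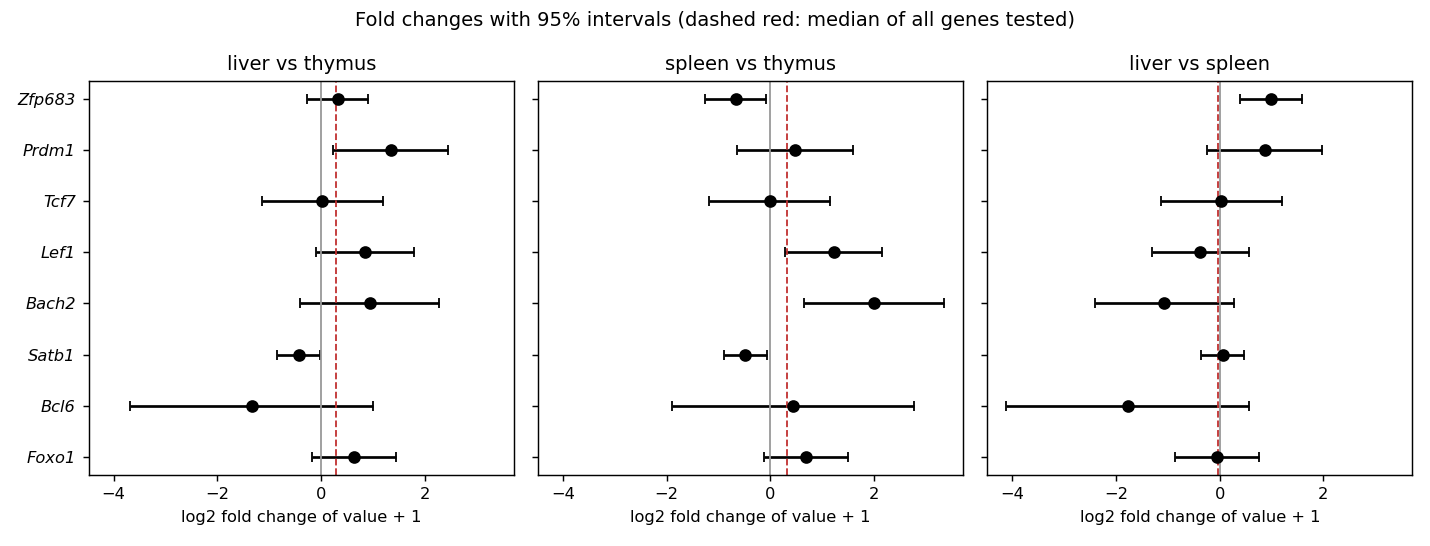
Log2 fold change of value + 1 for each factor in the 3 tissue comparisons, with 95% intervals from the limma-trend fit, a grey line at 0 and a dashed red line at the median of all 13309 genes. The interval of Zfp683 in liver vs spleen runs from 0.40 to 1.58 and that of Bach2 in spleen vs thymus from 0.66 to 3.34, while those of Tcf7 lie across 0 in every comparison.

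Zfp683 (ENSMUSG00000049410, mm10 chr4:134053838-134058996, plus strand) encodes Hobit. Its level was 12116, 7152 and 10459 in thymus replicates 1, 2 and 3. In liver it was 10663, 12952 and 12737, and in spleen 7308, 4376 and 7024. The 3 liver libraries were all higher than the 3 spleen libraries, while thymus overlapped both. By the means, liver (12117 ± 1264, SD, n = 3) was 1.94-fold above spleen (6236 ± 1617), and thymus stood between them at 9909 ± 2527. The liver vs spleen log2 fold change was 0.99 (standard error 0.28, 95% interval 0.40 to 1.58, limma-trend adjusted p 0.9999), and 1.01 relative to the median of all genes. It stayed between 0.75 and 1.12 with each library left out in turn. Of 25 alternatives it passed in 1, with a weight per array (log2 fold change 1.10, limma-trend adjusted p 0.0298). The spleen vs thymus log2 fold change was -0.67 (95% interval -1.26 to -0.08, limma-trend adjusted p 0.355), and in liver vs thymus 0.32 (-0.27 to 0.91, limma-trend adjusted p 0.686).

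Prdm1 (ENSMUSG00000038151, mm10 chr10:44437177-44528501, minus strand) encodes Blimp-1, which is also the factor that drives plasma cell differentiation. The only RefSeq promoter of Prdm1 tabulated for GRCm38.p6 belongs to a start inside the gene span given above, not at its outer end. Its 250 bases upstream of the start lie on the minus strand at chr10:44458749-44458998. They are shown because they hold the FOXO word GTAAACA, in capitals, 231 to 225 bases upstream.
Prdm1: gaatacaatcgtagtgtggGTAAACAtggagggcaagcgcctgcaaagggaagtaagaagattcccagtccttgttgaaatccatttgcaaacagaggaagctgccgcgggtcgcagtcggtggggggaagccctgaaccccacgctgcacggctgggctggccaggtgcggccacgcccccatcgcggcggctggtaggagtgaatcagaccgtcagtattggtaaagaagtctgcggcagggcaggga
Among all 32851 tabulated promoters 3.17% held that word on either strand in the same 250-base window, and a match is a description of the letters alone.

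The level of Prdm1 was 957, 1651 and 553 in thymus replicates 1, 2 and 3. It was 2665, 1481 and 3627 in liver, and 1715, 1280.3 and 1069 in spleen. Liver replicates 1 and 3 were higher than every other library, but liver replicate 2 lay below thymus replicate 2, so all 3 tissues overlapped. Liver (2591 ± 1075, SD, n = 3) was 2.46-fold above thymus (1054 ± 556) and spleen was at 1354 ± 329. The liver vs thymus log2 fold change was 1.34 (standard error 0.52, 95% interval 0.23 to 2.46, limma-trend adjusted p 0.334), or 1.049 relative to all genes. In liver vs spleen it was 0.87 (-0.24 to 1.98, limma-trend adjusted p 0.9999), and in spleen vs thymus 0.47 (-0.64 to 1.59, limma-trend adjusted p 0.757). Prdm1 was highest in liver replicate 3, the shallowest library, where Jchain had 0 reads, and next highest in liver replicate 1, where Jchain was at 11333. The part of plasma cell RNA in these levels was not tested. Without liver replicate 1 and spleen replicate 1, the libraries rich in Jchain, the liver vs thymus value was 1.28 (limma-trend adjusted p 0.608).

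Tcf7 (ENSMUSG00000000782, mm10 chr11:52252371-52283014, minus strand) encodes TCF1. It was at 1224, 1356 and 2344 in thymus replicates 1, 2 and 3, at 1412, 2072 and 1394 in liver, and at 3397, 1539 and 724 in spleen. Spleen held both the highest and the lowest library, and all tissues overlapped. The means were 1642 ± 612 in thymus, 1626 ± 386 in liver and 1887 ± 1370 in spleen (SD, n = 3). The 3 log2 fold changes were 0.02 (95% interval -1.14 to 1.19) in liver vs thymus, -0.01 (-1.18 to 1.15) in spleen vs thymus and 0.04 (-1.13 to 1.20) in liver vs spleen. These intervals leave room for more than 2-fold differences in either direction, and the sign turned with the scaling and with the library left out. Relative to all genes the values were -0.27 in liver vs thymus and -0.34 in spleen vs thymus.

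Lef1 (ENSMUSG00000027985, mm10 chr3:131110471-131224356, plus strand) was at 975, 2930.2 and 1898 in thymus replicates 1, 2 and 3. In liver it was 4003, 3649 and 2163, and in spleen 5463, 4065 and 3110.4. Every spleen library was higher than every thymus library, with 2930.2 in thymus replicate 2 and 3110.4 in spleen replicate 3 as the nearest pair, and liver overlapped both. Spleen (4213 ± 1183, SD, n = 3) was 2.18-fold above thymus (1934 ± 978), and liver stood at 3272 ± 976. The spleen vs thymus log2 fold change was 1.22 (standard error 0.44, 95% interval 0.29 to 2.16, limma-trend adjusted p 0.290), or 0.90 relative to all genes. It was 0.85 (-0.09 to 1.78, limma-trend adjusted p 0.469) in liver vs thymus and -0.38 (-1.31 to 0.56, limma-trend adjusted p 0.9999) in liver vs spleen. The related TCF1 and LEF1 genes thus had different orders of tissue means, with a log2 ratio of Tcf7 to Lef1 of -0.16 ± 0.82 in thymus, -0.98 ± 0.46 in liver and -1.40 ± 0.71 in spleen, overlapping throughout.

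Bach2 (ENSMUSG00000040270, mm10 chr4:32238804-32586108, plus strand) and Bcl6 (ENSMUSG00000022508, mm10 chr16:23965052-23988852, minus strand) encode the repressors opposed to Blimp-1. Of their tabulated RefSeq promoters, all 3 held the word TTCNNNGAA, which is shared by BCL6 and STAT sites and occurs in 7.02% of all tabulated promoters of that length on either strand. The only tabulated start of Bach2 lies inside the gene span given above, not at its outer end. The 250 bases upstream of each start (GRCm38.p6) are shown with the matches in capitals: Bach2 on the plus strand at chr4:32417185-32417434, and Bcl6 on the minus strand at chr16:23981284-23981533 (inner start) and chr16:23988853-23989102 (outer start).
Bach2: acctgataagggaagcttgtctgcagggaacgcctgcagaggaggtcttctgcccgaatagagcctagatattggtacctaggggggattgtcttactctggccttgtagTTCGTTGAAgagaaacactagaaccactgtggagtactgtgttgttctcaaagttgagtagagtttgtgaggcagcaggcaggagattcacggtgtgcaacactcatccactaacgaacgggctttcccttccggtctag
Bcl6 inner start: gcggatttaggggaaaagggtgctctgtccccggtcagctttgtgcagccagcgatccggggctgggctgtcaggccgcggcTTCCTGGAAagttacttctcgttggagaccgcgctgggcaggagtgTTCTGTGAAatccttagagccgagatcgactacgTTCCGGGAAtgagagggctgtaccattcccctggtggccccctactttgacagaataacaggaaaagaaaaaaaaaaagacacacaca
Bcl6 outer start: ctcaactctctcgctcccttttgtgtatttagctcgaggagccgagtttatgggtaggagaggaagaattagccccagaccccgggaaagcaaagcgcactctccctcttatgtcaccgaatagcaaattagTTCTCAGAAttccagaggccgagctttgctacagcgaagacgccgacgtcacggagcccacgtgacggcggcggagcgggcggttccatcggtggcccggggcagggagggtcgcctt
The Bach2 match TTCGTTGAA lies 140 to 132 bases upstream, the inner Bcl6 promoter has TTCCTGGAA, TTCTGTGAA and TTCCGGGAA between 168 and 80 bases upstream, and the outer one has TTCTCAGAA 118 to 110 bases upstream. Words for BACH2 and AP-1 (TGAGTCA, in 4.46% of promoters), Blimp-1 and IRF (GTGAAAG, 3.57%), TCF/LEF (TTCAAAG, 4.46%) and T-box factors (GGTGTGA, 3.33%), each searched on both strands, occurred in none of the 16 tabulated promoters of 7 factors. No match says only that these letters are not in those windows.

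The level of Bach2 was 270.2, 411 and 1739 in thymus replicates 1, 2 and 3. It was 983, 1569 and 879 in liver, and 2089, 2482 and 2393 in spleen. All 3 spleen libraries were higher than all 6 others, and within thymus replicate 3 stood far above replicates 1 and 2. Spleen (2321 ± 206, SD, n = 3) was 2.88-fold above thymus (806 ± 810) and 2.03-fold above liver (1144 ± 372). The spleen vs thymus log2 fold change was 2.0 (standard error 0.63, 95% interval 0.66 to 3.34, limma-trend adjusted p 0.230), or 1.67 relative to all genes. Leaving out 1 library at a time gave 1.45 to 2.79, and without thymus replicate 3 the difference passed (2.79, limma-trend adjusted p 0.0287). That library is the only one with Rag1 above 1 read, and whether its other RNA contributes to its Bach2 level was not tested. The liver vs spleen log2 fold change was -1.06 (-2.41 to 0.28, limma-trend adjusted p 0.9999), and in liver vs thymus 0.94 (-0.41 to 2.28, limma-trend adjusted p 0.581). B cells also express Bach2. In spleen replicate 2, where Bach2 was highest, Cd79a, Cd79b and Ms4a1 had 0 reads, Cd22 was at 65.3 and Fcer2a at 51.6, while B cell markers were highest in spleen replicate 1. The part of B cell RNA in the spleen levels was not tested. Without liver replicate 1 and spleen replicate 1 the spleen vs thymus value was 2.07 (limma-trend adjusted p 0.472). Bach2 overlaps an intronic transcript on its own strand, Bach2it1 (0 to 98.4 over the libraries), and an antisense gene, Bach2os (0.84 to 86.8), and since no strand setting of the counting is given in the sources used here, reads of these genes cannot be fully told apart.

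Bcl6 was at 260.1, 809 and 524 in thymus replicates 1, 2 and 3, at 37.4, 1012 and 177 in liver, and at 1355, 815 and 247 in spleen. The 3 tissues overlapped, and the relative spread was widest in liver. The means were 531 ± 275, 409 ± 527 and 806 ± 554 in thymus, liver and spleen (SD, n = 3). The liver vs thymus log2 fold change was -1.34 (standard error 1.10, 95% interval -3.67 to 1.0, limma-trend adjusted p 0.665), and it was -0.18 without liver replicate 1. In liver vs spleen it was -1.77 (-4.11 to 0.57, limma-trend adjusted p 0.9999) and in spleen vs thymus 0.44 (-1.90 to 2.77, limma-trend adjusted p 0.915). Relative to all genes the values were -1.63 in liver vs thymus and 0.11 in spleen vs thymus.

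Satb1 (ENSMUSG00000023927, mm10 chr17:51736187-51833290, minus strand) had the least spread of the 8 over the libraries on the log2 scale. Its level was 28109, 30809 and 23274 in thymus replicates 1, 2 and 3. In liver it was 23229.5, 18850.2 and 18896, and in spleen 16165, 21896 and 20794. All thymus libraries were higher than all liver and spleen libraries, although thymus replicate 3 and liver replicate 1 nearly met. Thymus (27397 ± 3817, SD, n = 3) was 1.35-fold above liver (20325 ± 2515) and 1.40-fold above spleen (19618 ± 3041), and liver and spleen did not differ beyond their spread. The log2 fold change was -0.43 (standard error 0.20, 95% interval -0.84 to -0.01, limma-trend adjusted p 0.416) in liver vs thymus and -0.48 (-0.90 to -0.07, limma-trend adjusted p 0.342) in spleen vs thymus. Relative to all genes these were -0.72 and -0.81. In liver vs spleen the value was 0.06 (-0.36 to 0.47, limma-trend adjusted p 0.9999), an interval that excludes a difference of 1.5-fold.

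Foxo1 (ENSMUSG00000044167, mm10 chr3:52268336-52353221, plus strand) was at 1815, 2795 and 2197 in thymus replicates 1, 2 and 3, at 4964, 3465 and 2460 in liver, and at 2905, 3130.3 and 5103 in spleen. Each spleen library was higher than each thymus library, by a narrow margin between 2795 and 2905, and liver overlapped both. The means were 2269 ± 494 in thymus, 3629 ± 1260 in liver and 3713 ± 1209 in spleen (SD, n = 3), so that spleen was 1.64-fold above thymus. The spleen vs thymus log2 fold change was 0.69 (standard error 0.38, 95% interval -0.13 to 1.5, limma-trend adjusted p 0.501), or 0.36 relative to all genes. In liver vs thymus it was 0.64 (-0.17 to 1.45, limma-trend adjusted p 0.528), and in liver vs spleen -0.04 (-0.86 to 0.77, limma-trend adjusted p 0.9999).

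Levels can be set beside each other between genes only per length. Divided by the kilobases of exon in GENCODE vM21, Zfp683 had the highest level of the 8 in each tissue, at 6736, 8237 and 4239 per kb in thymus, liver and spleen, which lay at the 99.4, 99.6 and 99.2 percentile of all genes. Satb1 followed at 1440, 1068 and 1031 per kb (percentiles 96.1, 95.02 and 94.7), and Tcf7 at 625, 619 and 719 (87.7, 90.2 and 91.7). Prdm1 was at 189, 464 and 243 per kb in thymus, liver and spleen (62.7, 85.8 and 71.6). Foxo1 was at 262, 419 and 428 per kb and Lef1 at 220, 372 and 479. The repressors Bach2 (81.1, 115 and 234 per kb) and Bcl6 (79.3, 61.0 and 120.3) had the lowest levels of the 8 in each tissue. The log2 ratio of Zfp683 to Prdm1, not corrected for length, was 3.34 ± 1.10 in thymus, 2.31 ± 0.71 in liver and 2.19 ± 0.48 in spleen.

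Ratios of opposed factors within a library hardly depend on how a library was scaled. They are not corrected for gene length, so they are compared between libraries and do not say which of 2 factors was higher. The log2 ratio of Zfp683 to Lef1 was 3.63, 1.29 and 2.46 in thymus replicates 1, 2 and 3, 1.41, 1.83 and 2.56 in liver, and 0.42, 0.11 and 1.17 in spleen. All 3 spleen libraries had a lower ratio than all 6 others, with means of 2.46 ± 1.17, 1.93 ± 0.58 and 0.57 ± 0.55 (SD, n = 3). For Prdm1 to Bach2 it was 1.82, 2.01 and -1.65 in thymus, 1.44, -0.08 and 2.04 in liver, and -0.28, -0.95 and -1.16 in spleen. The ratio was higher in all 3 liver libraries than in all 3 spleen libraries, and thymus replicate 3 had the lowest of all 9. The log2 ratio of Zfp683 to Tcf7 was 2.62 ± 0.61, 2.92 ± 0.27 and 1.96 ± 1.16 in thymus, liver and spleen, and overlapped. That of Prdm1 to Bcl6 was 0.99 ± 0.90, 3.67 ± 2.85 and 1.03 ± 0.94, the liver mean resting on replicates 1 and 3 at 6.12 and 4.35 beside 0.55 in replicate 2. These 6 ratios are descriptions and were not tested.

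**Figure D4:**
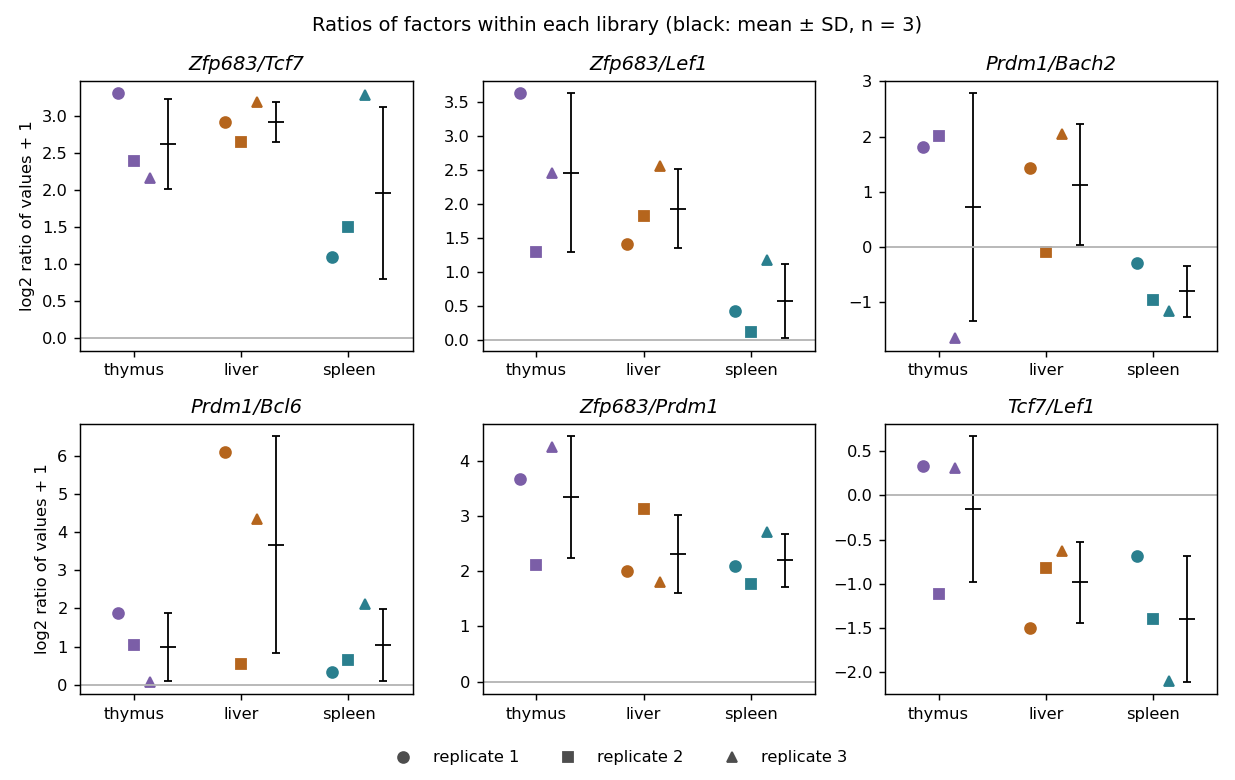
Log2 ratio of value + 1 between 2 factors within each library, by tissue, with 1 point per library, shapes for replicate numbers, black bars for mean ± SD (n = 3) and a grey line at 0, without correction for gene length. For Zfp683 to Lef1 the 3 spleen libraries lie at 0.11 to 1.17, below all thymus and liver libraries.

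For each factor the genes whose profile over the 9 libraries was most like it were found among 8856 named genes with a mean of at least 100, by the root-mean-square difference of centred log2(value + 1). These likenesses are a description, and the points share library depth and tissue. Satb1 was matched most closely, by Rapgef6 (0.11) and Pi4ka (0.12), beside its own spread of 0.27. Zfp683 was nearest to Rpl15 (0.18) and Cyth4 (0.19), against an own spread of 0.50. Foxo1 was nearest to Cblb (0.19) and Efcab14 (0.27), and Tcf7 to Rexo4 (0.21) and Zadh2 (0.30). The nearest genes to Lef1 were Slc39a4 (0.25) and Ikbke (0.27), and those to Bach2 were Gtf3c5 (0.26) and Med30 (0.37) against its own spread of 1.07. Gtf3c5 shared the high thymus replicate 3 of Bach2, at 61.7, 84.5 and 412 in thymus replicates 1, 2 and 3. Prdm1 had looser matches in Epsti1 (0.41) and Sae1 (0.42), and Bcl6 the loosest in Smurf1 (0.68) and Wdr83 (0.68).

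Genes that these factors act with or on were read from 6 lists of pathway members. Of all 13309 genes tested, 0.203% passed as higher and 0.12% as lower in liver vs thymus. In spleen vs thymus 0.188% passed as higher and 0.21% as lower, and in liver vs spleen 0.015% and 0%. The median log2 fold changes of all genes in these 3 comparisons were 0.29, 0.33 and -0.02. The calls and medians of each list below stand beside these values. Genes higher in resident cells (32 of 33 listed in the table, all tested) included 1 that rose and 1 that fell in liver vs thymus, 4 that fell in spleen vs thymus and 1 that was higher in liver than in spleen. The 4 that fell in spleen were Itgae and Itga1, the integrin chains αE and α1, Gzmb, granzyme B, and Inpp4b, a phosphoinositide phosphatase. Itga1 averaged 8354 ± 420 in thymus, 3789 ± 639 in liver and 1514 ± 498 in spleen (SD, n = 3), a log2 fold change of -2.52 in spleen vs thymus (limma-trend adjusted p 0.00334). Gzmb averaged 15591 ± 1817, 8048 ± 2173 and 786 ± 527 in the same order, with -4.50 in spleen vs thymus (limma-trend adjusted p 6.5e-05), and both calls passed with each library left out in turn. The summed level of the natural killer cell markers was likewise lowest in spleen, although Ncr1, Klrg1 and Itga2 had their lowest means in thymus. The part of natural killer cell RNA in these differences was not tested. In liver vs thymus Itgae fell and Cxcr6, a chemokine receptor, rose. The list's median log2 fold change was -0.54, -0.73 and 0.38 in liver vs thymus, spleen vs thymus and liver vs spleen. Without liver replicate 1 and spleen replicate 1, 3 of the 4 falls in spleen passed and neither call in liver vs thymus nor that in liver vs spleen did. When thymus replicate 3 was also left out, no gene of the list passed.

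The calls of Itgae, Cxcr6 and Inpp4b, and that of Gzmb in liver vs spleen, did not pass in every fit that left out 1 library. Such fits also had fewer samples. Among all genes, 43 passed in liver vs thymus with all 9 libraries, and 8 or 9 without any 1 liver library. In spleen vs thymus 53 passed with all 9, and 9 to 14 without any 1 spleen library. Itgae in liver vs thymus did not pass without any of thymus replicates 1, 2 and 3 or liver replicates 2 and 3 (limma-trend adjusted p 0.0665, 0.0523, 0.0554, 0.128 and 0.158). In spleen vs thymus it did not pass without spleen replicates 1, 2 or 3 (limma-trend adjusted p 0.0599, 0.0655 and 0.0790). Cxcr6 was lost without liver replicates 1, 2 or 3 (limma-trend adjusted p 0.121, 0.0932 and 0.147), and Inpp4b without spleen replicates 1, 2 or 3 (limma-trend adjusted p 0.113, 0.0710 and 0.151). Gzmb in liver vs spleen was lost without liver replicates 1 or 3 (limma-trend adjusted p 0.0645 and 0.0507).

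Genes for tissue exit and recirculation, which Hobit and Blimp-1 are known to repress in part, gave 1 call among 21 tested. The call was a fall in spleen vs thymus, where 0.21% of all genes fell. Vim, the filament protein vimentin, was at 8347, 7064 and 5034 in thymus replicates 1, 2 and 3, at 3247, 848 and 728 in liver and at 822, 445 and 124 in spleen. Its 3 thymus values lay above all others, and it fell in spleen vs thymus, with -4.22 on the log2 scale (standard error 0.69, limma-trend adjusted p 0.0131), but did not pass when spleen replicate 2 or 3 was left out (limma-trend adjusted p 0.0594 and 0.0610). The exit genes Klf2 and S1pr1 did not pass in the limma-trend fit of all 9 libraries. Klf2 was at 2697, 171 and 299.6 in thymus, 75.7, 28.3 and 55.7 in liver and 168, 63.2 and 68.3 in spleen. Its 3 thymus values lay above all others. Its log2 fold change was -3.37 in liver vs thymus (limma-trend adjusted p 0.341) and -2.51 in spleen vs thymus (limma-trend adjusted p 0.476). In each of these comparisons Klf2 passed in 1 of 25 alternatives and S1pr1 in 0. S1pr1 averaged 877 ± 147 in thymus, 310.3 ± 169.5 in liver and 472 ± 251 in spleen, with a log2 fold change of -1.67 in liver vs thymus (limma-trend adjusted p 0.429). The median of the list was -0.65, -0.72 and -0.11 in the 3 comparisons.

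Among quiescence genes (18 tested) and among genes of the FOXO axis (25 tested), the same gene, Il7r, was the only call. The call was a fall in liver vs thymus, where 0.12% of all genes fell. Il7r encodes the interleukin-7 receptor α chain, a known FOXO1 target that supports survival of resting T cells. It was at 39748, 50118 and 27831 in thymus replicates 1, 2 and 3. In liver it was 4131, 4674 and 2109, and in spleen 15547, 17004 and 8546. No tissue overlapped another, with thymus highest and liver lowest. By the means thymus was 10.8-fold above liver, and the liver vs thymus log2 fold change was -3.47 (standard error 0.34, limma-trend adjusted p 2e-04). That call passed in 24 of 25 alternatives, including each library left out in turn, and was lost (limma-trend adjusted p 0.0845) only without thymus replicate 3, liver replicate 1 and spleen replicate 1 together. In that fit 0 of all 12704 genes tested passed. With all 9 libraries the value was -1.54 in spleen vs thymus (limma-trend adjusted p 0.0652) and -1.93 in liver vs spleen (limma-trend adjusted p 0.127). Foxo1 itself was at 3629 ± 1260 in liver and 2269 ± 494 in thymus. The list medians were -0.41, -0.34 and -0.37 for quiescence genes and -0.49, -0.24 and -0.14 for the FOXO axis.

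Partners of TCF1 and LEF1, such as β-catenin, the TLE co-repressors and APC, gave no call among 15 tested in any of the 3 comparisons. Of all genes 0.323%, 0.398% and 0.015% passed in these comparisons. The list medians were 0.08, 0.28 and -0.15. The lowest F-test p-values in the list belonged to Tcf7l1 and Tle4. Tcf7l1, another TCF family member, was at 41.8, 187 and 15.5 in spleen, and had 0 reads in every thymus library and at most 3 in liver (limma-trend adjusted p 0.167 in spleen vs thymus). Tle4, a co-repressor, was at 4424, 12100.0 and 5099 in thymus, 2583, 3149 and 2321 in liver and 2647, 3551 and 3979 in spleen, with thymus above both other tissues (limma-trend adjusted p 0.214 in liver vs thymus).

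Of 24 genes of the BACH2, BCL6 and Blimp-1 repressor network, 1 rose in liver vs thymus and 1 in spleen vs thymus. In both cases it was Irf4, a factor of activated T cells and plasma cells. Of all genes 0.203% and 0.188% rose in these comparisons. Irf4 was at 0.0213, 1.18 and 127 in thymus replicates 1, 2 and 3, at 2578, 887 and 1784 in liver and at 3137, 1643 and 1177 in spleen. The thymus libraries held 101 reads of Irf4 at most, while each liver and spleen library was higher than all of them. Its log2 fold change was 7.93 in liver vs thymus (standard error 1.43, limma-trend adjusted p 0.0261) and 8.12 in spleen vs thymus (limma-trend adjusted p 0.0195). Irf4 also belongs to the plasma cell markers. It was highest in spleen replicate 1 and liver replicate 1, the libraries rich in Jchain, and was at 887 in liver replicate 2 and 1643 in spleen replicate 2, where Jchain was at 25.7 and 13.7. The part of plasma cell RNA in its difference was not tested. Without liver replicate 1 and spleen replicate 1 neither call passed. The liver vs thymus call was lost without thymus replicate 2, without any 1 liver library and without any 1 spleen library (limma-trend adjusted p 0.0548, 0.195, 0.103, 0.183, 0.0735, 0.0600 and 0.0506). The spleen vs thymus call was lost without liver replicate 1 or 3 and without any 1 spleen library (limma-trend adjusted p 0.0602, 0.0503, 0.157, 0.105 and 0.108). The network's medians were -0.04, 0.16 and -0.20.

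**Figure D5:**
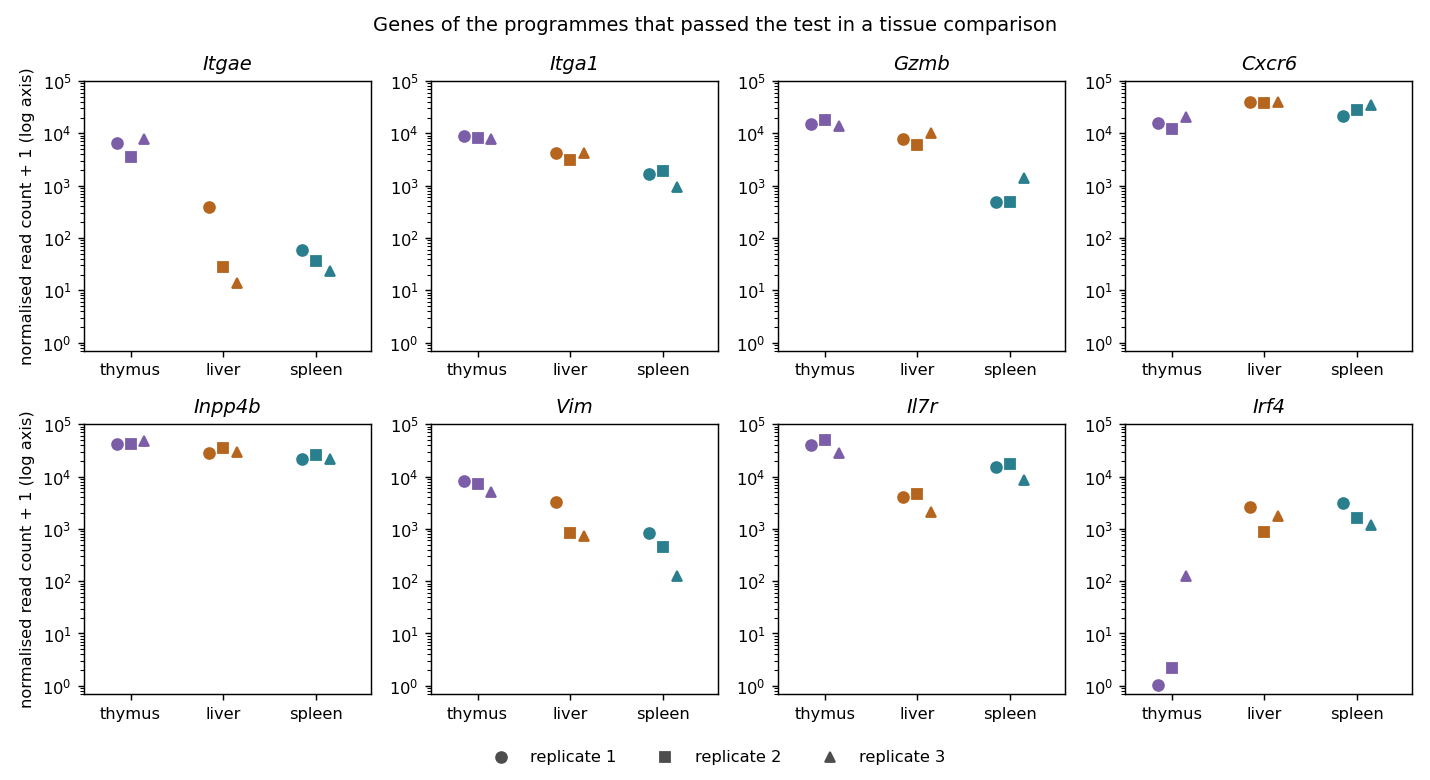
Normalised read count + 1 on a log axis for the 8 genes of the 6 lists that passed the test in a tissue comparison, with 1 point per library and shapes for replicate numbers. The Il7r points lie between 27831 and 50118 in thymus and between 2109 and 4674 in liver, and Irf4 is at or under 127 in thymus and at 887 or more in liver and spleen.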

How the data were processed

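RNA-seq was measured in 9 libraries, 3 per tissue. The authors deposited 1 table of normalised read counts, a signal per gene and library. The submitters' processing notes name Trimmomatic 0.33, TopHat2 2.1.0, HTSeq 0.6.1, edgeR and mm10; how the counts were scaled is not given in the sources used here. Symbols matched 13359 of 14004 identifiers. Low values lie on a ladder of steps per library, from which reads were recovered; 93.5% of 15737 low values lay within 0.1 read of a whole number, with the lowest share, 72.9%, in liver replicate 3, whose reads are therefore estimates.

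The 13309 genes that reached a value of 1 in 3 or more samples were tested with limma-trend (limma 3.58.1, R 4.3.3) on log2(value + 1), which understates the change of low genes. All 9 samples entered 1 fit without a block. Two-sided p-values had Benjamini-Hochberg adjustment over all genes and a threshold of 0.05. There were 25 alternatives, including edgeR 4.0.16 and DESeq2 1.42.0 on recovered reads, other scalings, filters and pseudocounts, and each library left out. Fits without the libraries rich in Jchain or Rag1 were added after the data had been seen. A count test had been planned and was replaced because the values are not counts. The procedure was tested on 10 simulated tables, each with 200 genes changed in liver. In liver vs thymus it called 20.2% of the 4-fold and 64.5% of the 32-fold changes, and 5.99% of its calls were false. A difference that did not pass is therefore not shown to be absent.

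The 8 factors and all lists were chosen with earlier results of these data known. The text names the 8 factors, every list gene past the threshold (otherwise the 2 with the lowest F-test p), and the 2 genes most like each factor. Klf2, S1pr1, Bach2it1, Bach2os and the other cell type genes were added as context. Positions and exon lengths are from GENCODE vM21, and promoters from RefSeq for GRCm38.p6, where 7 of 8 factors matched. Some listed genes are not reported here.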

Additional observations from a re-analysis of the deposited data

How the results depend on the processing

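No factor passed the threshold in any comparison under any of the 25 alternatives, except Zfp683 in liver vs spleen with array weights (log2 fold change 1.10, limma-trend adjusted p 0.0298; F-test 0.0292) and Bach2 in spleen vs thymus without thymus replicate 3 (2.79, limma-trend adjusted p 0.0287). Of 600 alternative values of the 24 fold changes, 33 turned sign, 21 of them for Tcf7 and none for Zfp683, Lef1 or Bach2. The cause of these turns was not tested.

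Counts of all genes called moved more, and the cause was not tested. Fits with libraries left out also had fewer samples. In liver vs thymus (43 genes) there were 458 with DESeq2 and 25 with edgeR on recovered reads, 12 with only the 6 samples compared, 12 with only the libraries numbered 1 and 3, 2 without the Jchain-rich libraries (liver 1, spleen 1), 0 when thymus 3 was also left out, and 8 to 151 with each library left out. In spleen vs thymus (53) these were 518 with DESeq2, 16, 19, 13 and 0, and 9 to 140. In liver vs spleen (2) they were 24 with DESeq2, 18 with array weights, 6, 0, 0 and 0, and 0 to 3. For any tissue difference (46) they were 358 with DESeq2, 74 with array weights, 16 with the libraries numbered 1 and 3, 11 and 0, and 18 to 74. Where the count in liver vs spleen was 0, 250 to 339 of 12466 to 13197 genes had an unadjusted limma-trend p under 0.05. That is below the share of 0.05 that such a threshold gives when nothing differs. In the other comparisons the count was 0 only without liver 1, spleen 1 and thymus 3 together. There 1736 to 2104 of 12704 genes had an unadjusted limma-trend p under 0.05.

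The labels do not say that replicate numbers pair the samples, and no same-number correlation exceeded 0.0891. Xist was nonetheless at 84543 to 107736 in the libraries numbered 2, and Jchain was highest in liver replicate 1 and spleen replicate 1. The label of thymus replicate 2 also has an unexplained extra letter, WTf in place of WT. Whether the numbers mark a shared source was not tested. With a replicate block there were 42, 55 and 4 calls in liver vs thymus, spleen vs thymus and liver vs spleen and 45 in the F-test, and no factor passed. With a term for the libraries numbered 2 these were 40, 55, 3 and 43, again with no factor passing.

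Tcf7 turned in liver vs thymus to -0.033 with DESeq2, -0.026 with edgeR, -0.034 with array weights, -0.065 with edgeR and replicate block, -0.27 with the libraries numbered 1 and 3, and as low as -0.17 (to 0.31) with a library left out. In spleen vs thymus it turned to 0.153 and 0.1504 with equal totals, with and without mitochondrial genes, 0.17 with DESeq2, 0.20 with edgeR, 0.057 with edgeR and replicate block, and -0.58 to 0.54 with a library left out. In liver vs spleen it turned to -0.21 with DESeq2, -0.23 with edgeR, -0.12 with edgeR and replicate block, -0.16 with the libraries numbered 1 and 3, and -0.52 to 0.60 with a library left out. Satb1 in liver vs spleen turned to -0.069 with array weights, -0.18 without liver 1 and spleen 1 (also without thymus 3), and -0.077 to 0.14 with a library left out. Bcl6 in spleen vs thymus turned to -0.096 without liver 1 and spleen 1, -0.032 without thymus 3 as well, and -0.096 to 1.13 with a library left out. Foxo1 in liver vs spleen ran from -0.30 to 0.21 with a library left out, and Prdm1 in spleen vs thymus turned to -0.10 without thymus 3, liver 1 and spleen 1. Depth limits Bcl6 and Bach2 most, in liver replicate 3.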
